A study of Mus musculus with 7 samples.

Results

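Fos, Fosb, Jun, Junb, Egr1, Atf3, Ier2, Ier3 and Zfp36 are genes that cells switch on within minutes of a stimulus. Jund belongs to the family of Jun and Junb but is known to be present in resting cells. All 10 were read here by symbol in single cells of the mouse mammary gland. These 10 of the 27998 genes held 1755322 of 83649527 unique molecular identifiers (UMIs), the tags that mark single mRNA molecules, or 2.10% of all molecules counted. The cells came from the abdominal #4 glands, freed of lymph nodes, of 3 young (3 to 4 months, Young A to C) and 4 aged (13 to 14 months, Aged A to D) nulliparous females of a mixed FVB, 129 and C57BL/6J background at diestrus. All glands, young and aged, were minced and digested with collagenase and hyaluronidase for 1.5 h at 37°C, followed by dispase, DNase and TrypLE, so every value below was measured after dissociation, and no undissociated tissue was analysed here. Each mouse gave 1 library of the 10x Chromium 3′ v2 kit, and the authors assigned the 13684 cells to 13 cell types, among them hormone-sensing (HS) and secretory alveolar (AV) luminal cells, a luminal type with markers of both (HS-AV), and the macrophage types Ma and Mb.

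AP-1 is a transcription factor made of a pair of proteins, usually 1 from the Fos and 1 from the Jun family, and Atf3 can join the same pairs. Growth factors, cytokines and stress reach most of these genes through MAP kinases and factors that already sit at their promoters. The mRNA therefore appears quickly, and it disappears quickly because its AU-rich tail is bound by proteins such as the one encoded by Zfp36. Enzymatic digestion and warmth are themselves known stimuli of these genes. In the mammary gland, AP-1 proteins are known for parts in epithelial growth, involution and the response to wounding.

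The promoters are shown because the members are known as targets of shared signals. The RefSeq promoter table (GRCm38.p6, the mm10 genome) matched 8 of the 10 genes, all but Egr1 and Ier2, with 250 bases before and 50 after the transcription start. The 120 bases before the start are printed 5′ to 3′ on the gene's strand for 7 of them, with motif matches in capitals. Jund, the other matched gene, had none of the motifs in its window and is not printed.

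Fos, chr12:85473770-85473889, plus strand: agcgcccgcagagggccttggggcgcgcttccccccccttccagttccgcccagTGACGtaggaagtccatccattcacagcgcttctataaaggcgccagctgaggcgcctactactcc
Fosb, chr7:19310046-19310165, minus strand: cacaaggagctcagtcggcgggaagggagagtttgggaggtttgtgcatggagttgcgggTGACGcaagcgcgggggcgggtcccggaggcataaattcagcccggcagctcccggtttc
Jun, chr4:95052223-95052342, minus strand: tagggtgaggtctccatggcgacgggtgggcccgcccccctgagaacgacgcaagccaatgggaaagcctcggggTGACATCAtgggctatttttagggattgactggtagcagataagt
Junb, chr8:84978749-84978868, minus strand: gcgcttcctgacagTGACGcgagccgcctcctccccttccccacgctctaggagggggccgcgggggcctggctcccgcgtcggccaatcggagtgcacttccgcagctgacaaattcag
Atf3, chr1:191183334-191183453, minus strand: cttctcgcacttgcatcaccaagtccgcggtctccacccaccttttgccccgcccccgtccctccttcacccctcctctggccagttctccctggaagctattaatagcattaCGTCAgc
Ier3, chr17:35821593-35821712, plus strand: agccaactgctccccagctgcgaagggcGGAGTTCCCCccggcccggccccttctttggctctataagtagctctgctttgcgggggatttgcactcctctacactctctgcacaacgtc
Zfp36, chr7:28379229-28379348, minus strand: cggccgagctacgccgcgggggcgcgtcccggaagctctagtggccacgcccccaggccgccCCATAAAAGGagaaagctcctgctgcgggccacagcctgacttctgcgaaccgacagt

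The capitals mark the core of the cAMP response element (TGACG), the site TGACATCA known from the Jun promoter, the CArG box of serum response factor and the NF-kB site, each read on both strands. TGACG stood in 4 of the 8 matched promoters (Fos, Fosb, Junb and Atf3) and in 20.8% of all 32851 promoters of the table. In Fos it lay 66 to 62 and again 129 to 125 bases before the start, and in Fosb 60 to 56 bases before it. TGACATCA stood in Jun alone of the 8 and in 3.62% of all promoters, and the CArG box in Zfp36 alone of the 8 and in 1.63% of all promoters. The NF-kB site stood in Fos, Fosb and Ier3 and in 8.46% of all promoters, within the printed stretch in Ier3 only, 92 to 83 bases before the start. The AP-1 site TGANTCA stood in none of the 8 windows and in 7.81% of all promoters. A match describes the letters of the window, and no binding was measured. By GENCODE vM21, Jund, Ier2 and Junb lie on chromosome 8, the latter pair 312 kb apart, Fosb and Zfp36 on chromosome 7, and the other members on chromosomes of their own.

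Levels are given as CPM, the UMIs of a gene for every 1000000 UMIs of all cells of a type summed in 1 mouse, for mice with at least 3 cells of the type. A UMI counts a molecule by its 3′ end, so gene length does not enter. The cell types are clusters of the same cells on the same genes, so levels between types are a description with no test.

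The members together had their highest mean in lymphatic endothelial cells and their lowest means in Mb macrophages and dendritic cells. Summed over the 10 genes, the level was 50822 ± 25126 CPM (SD, n = 5 mice) in lymphatic endothelial cells, a type of 28 cells in all and 3 to 7 in each of these mice. It was 38609.8 and 22650.5 CPM there in Young A and C and 88669, 60659 and 43519.7 CPM in Aged B, C and D, above AV cells in 4 of the 5 mice and below them (24253 CPM) in Young C. It was 27429 ± 5401 (n = 7) in AV cells, 22594 ± 3005 in pericytes, 22101 ± 6439 in fibroblasts and 19671 ± 3261 in vascular endothelial cells. AV cells stood above pericytes in 6 of 7 mice, whereas pericytes stood above fibroblasts in 4 of 7, so the order of the latter pair did not hold. Myoepithelial cells, the contractile outer layer of the ducts, had 9869.6 ± 1404 CPM, below HS cells with 17385 ± 2889.8. Dendritic cells had 6565 ± 2053 (n = 5) and Mb macrophages 7476 ± 4481 (n = 7), which did not differ beyond their spread, with Mb cells above dendritic cells in 2 of the 5 mice that held both.

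**Figure D1:**
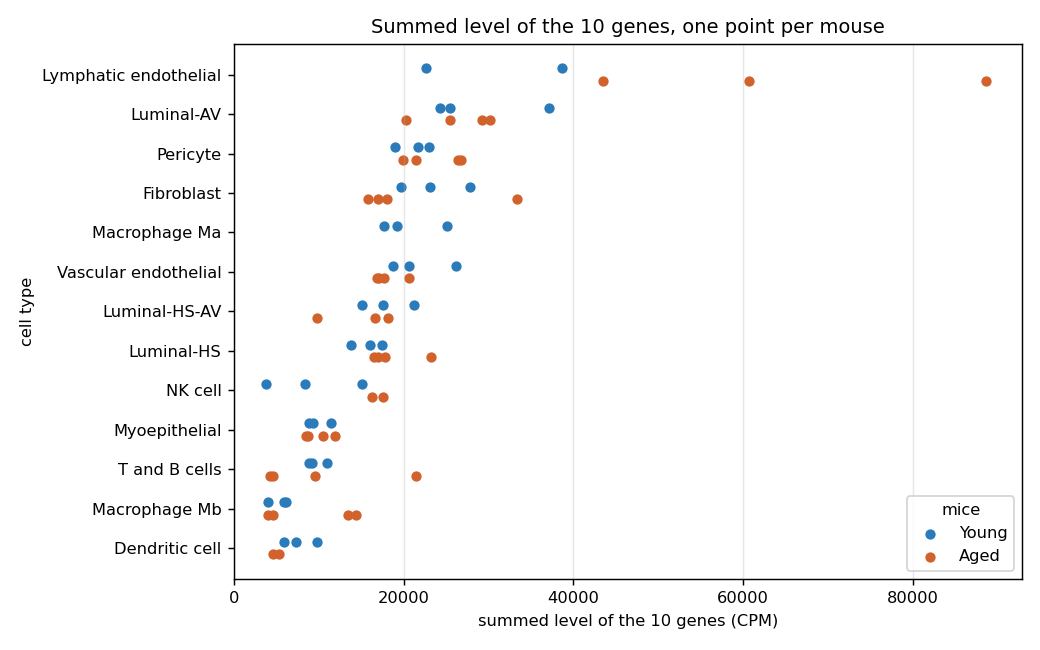
Summed level of the 10 genes (x axis, CPM) in each of the 13 cell types (y axis, ordered by median), with 1 point per mouse, blue for young and orange for aged. The 7 myoepithelial points lie between 8439 and 11873 CPM and the 7 AV points between 20254 and 37172 CPM, with no overlap, while young and aged points overlap in most types.

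The macrophage types differed in every mouse that held both. In the 3 young mice the summed level was 17728 to 25065 CPM in Ma macrophages and 3953 to 6124 CPM in Mb macrophages. Fosb was 1178 ± 397 CPM in Ma and 251 ± 87.0 in Mb cells of the young mice, and Jund 5805 ± 695 and 1355 ± 369 (n = 3 each). Aged mice did not have 3 Ma cells each, so this pair was read in young mice only. The aged Mb sums rest on 3 to 9 cells per mouse and spread from 4027 to 14389 CPM.

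Fos and Fosb encode the Fos partners of AP-1. Fos was highest in lymphatic endothelial cells with 12487 ± 8989.9 CPM (n = 5), followed by AV cells with 6853 ± 2083 (n = 7), and lowest in dendritic cells with 811 ± 474 (n = 5). From pericytes (3766 ± 861) through fibroblasts (3642 ± 1521) to HS cells (3511 ± 723) the means differed by less than their SD. Fosb was the lesser of the pair in every type, holding from 6.32% ± 6.23 (lymphatic endothelial, n = 5) to 26.7% ± 10.2 (Ma, n = 3) of the summed Fos and Fosb UMIs. Its highest mean, 1178 ± 397 CPM, was in Ma macrophages, which only young mice contributed, and in all 3 of these mice fibroblasts lay above Ma cells.

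Jun, Junb and Jund encode the Jun partners, of which Jun and Junb respond quickly to stimuli and Jund is known to be present in resting cells. Jund had the largest mean share of the 3 in most types, with most in HS-AV (69.4% ± 7.71 of their summed UMIs, n = 6) and HS cells (64.3% ± 4.56, n = 7). It held 54.6% ± 2.42 (n = 3) in Ma macrophages, 51.7% ± 7.75 in fibroblasts and 51.6% ± 7.64 in AV cells. In myoepithelial cells it held 38.6% ± 7.84, beside 37.3% ± 5.75 for Junb. Jund was not the largest in lymphatic endothelial cells (30.0% ± 8.66, n = 5), NK cells or Mb macrophages. The level of Jund was alike throughout the luminal lineage, at 7139 ± 1795 CPM in HS-AV, 7071 ± 1218 in AV and 6905 ± 1394 in HS cells, and these 3 did not differ beyond their spread. Jun and Junb were highest in lymphatic endothelial cells, with 9078 ± 5174 and 8470.4 ± 4676 CPM (n = 5). Jun was 3604 ± 1242 CPM in AV and 1067 ± 299 in myoepithelial cells. Junb was 4092 ± 665 CPM in pericytes, 1571 ± 302 in HS cells and 1237 ± 495 (n = 6) in HS-AV cells. HS and HS-AV cells thus both combined a high level of Jund with a low level of Junb. The aged HS-AV values rest on 4 to 6 cells per mouse. Junb in HS-AV cells was 1611 ± 333 CPM in young and 863 ± 286 CPM in aged mice (n = 3 each).

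Atf3, a stress-induced repressor and activator of the ATF family, was 3854 ± 1689 CPM in lymphatic endothelial cells and 1587 ± 373 in AV cells. Egr1, a zinc finger factor induced by serum and growth factors, was highest in fibroblasts with 1983 ± 763 CPM and was 302 ± 97.9 CPM in HS cells. Within the luminal lineage Egr1 separated AV cells (1029 ± 430.4) from HS cells, and Ier2, a nuclear protein of the immediate early response, did the same with 1246 ± 372 and 374 ± 78.4 CPM. Ier3, which encodes a regulator of ERK signalling and survival, was 2199.9 ± 1145 CPM in vascular endothelial cells and 177 ± 87.9 in Mb macrophages. Zfp36, which encodes the mRNA-decay protein tristetraprolin, was highest in lymphatic endothelial cells (5027 CPM, n = 5) and lowest in T and B cells (219 CPM, n = 7). It was 1385 ± 309.8 CPM in pericytes, 1307 ± 342 in vascular endothelial cells and 256 ± 51.5 in myoepithelial cells.

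**Figure D2:**
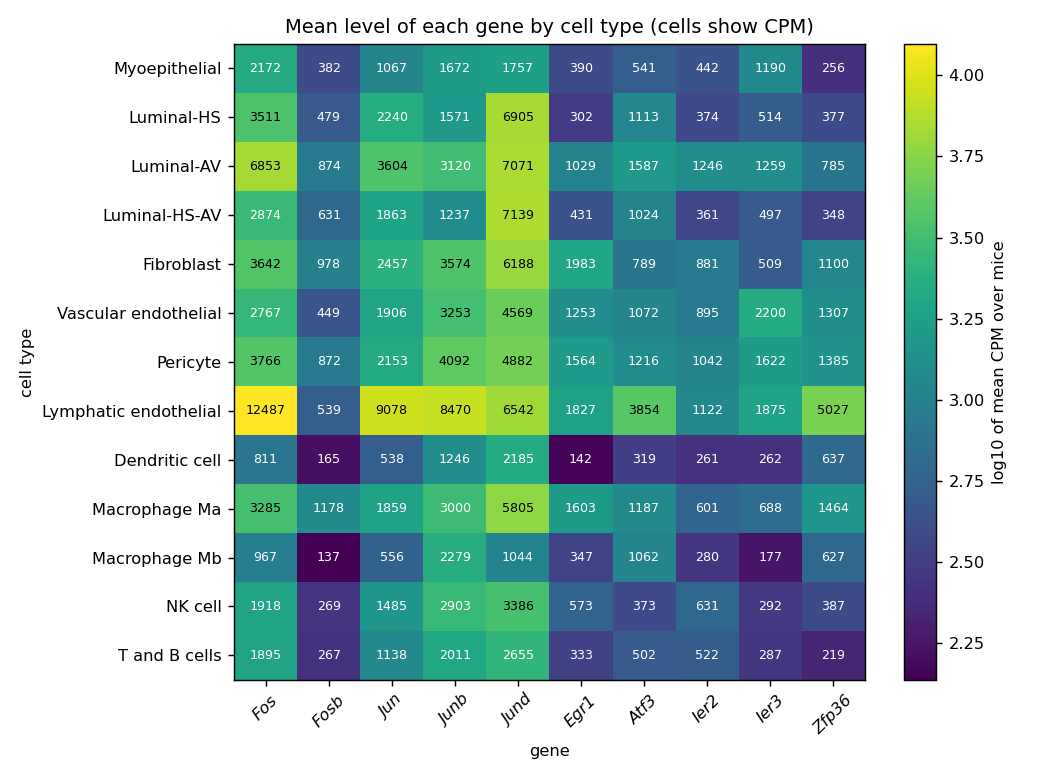
Mean level over mice of each gene (columns) in each cell type (rows), coloured by log10 CPM and printed as CPM. Lymphatic endothelial cells hold the highest Fos (12487), Jun, Junb, Atf3 and Zfp36. The luminal types hold Jund at 6905 to 7139, and dendritic cells and Mb macrophages are the darkest rows.

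Single cells were compared after each was thinned to 2000 UMIs, a depth that no cell fell below, since median depth ranged from 4224 UMIs per cell in NK cells to 7277 in HS cells. At this depth 7 or more of the 10 genes had a UMI in 85.1% of pericytes (78.3% to 91.7% over mice), 76.0% of vascular endothelial cells (62.9% to 88.3%), 71.6% of AV cells and 65.7% of fibroblasts. The share was 37.7% in myoepithelial cells, 18.1% in dendritic cells (7.55% to 34.7%) and 11.6% in Mb macrophages. The Mb share was 8.06% of 124 young and 31.8% of 22 aged cells, and ran from 0% to 100% over mice. Of AV cells 0.145% had at most 1 of the 10, against 4.79% of Mb macrophages and 10.0% of the 40 NK cells. The median cell held 6 or more of the 10 genes in 9 of the 13 types.

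**Figure D3:**
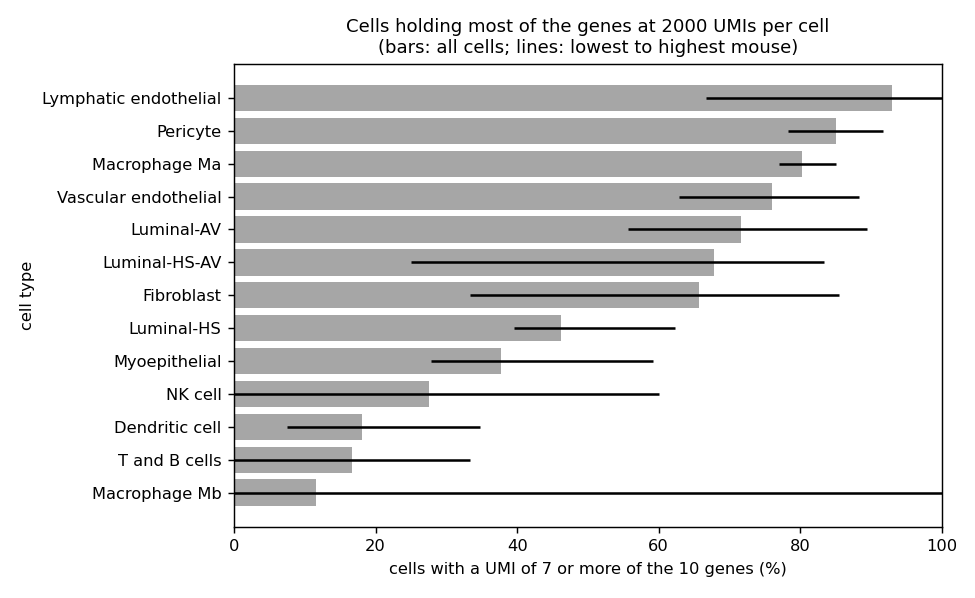
Share of cells (x axis, %) with a UMI of 7 or more of the 10 genes after thinning to 2000 UMIs, by cell type (y axis). Bars are all cells of a type and lines run from the lowest to the highest mouse with at least 3 cells; pericytes reach 85.1% and Mb macrophages 11.6%.

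For single genes, thinning lowered the share of AV cells with a Fosb UMI from 84.0% to 57.8%, and that of Jund from 99.9% to 98.3%. An Ier3 UMI was found in 80.7% of thinned vascular endothelial cells (92.2% unthinned, median depth 4907 UMIs) and in 8.90% of thinned Mb macrophages (22.6% unthinned, 5343 UMIs). The Mb share rests on Young A, which gave 90 of the 146 cells and had 1.11%, and it was at most 16.7% in the young mice and at least 22.2% in each aged mouse. No cell type is known to lack these genes, so no share here gives a background for free RNA. UMIs of AV marker genes were counted in other types too, and whether they were carried over from AV cells was not tested: 6 AV marker genes summed to between 15257 and 25463 CPM in AV cells, and to between 316 and 1679.9 CPM over mice in HS, myoepithelial and vascular endothelial cells.

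Members varied together from cell to cell to a degree that depended on the pair and the type. Within 1 mouse and type, over thinned cells on a log2 scale, Fos and Jun had a mean Pearson r of 0.64 in AV cells (0.56 to 0.79 over 7 mice), 0.65 in fibroblasts (4 mice), 0.57 in vascular endothelial cells, 0.47 in HS cells and 0.40 in myoepithelial cells (6 mice). In AV cells Fos also went with Junb (0.61), Ier2 (0.60) and Egr1 (0.54). Fos and Ier3 were only loosely related, with 0.20 in AV, 0.13 in fibroblasts and 0.08 in vascular endothelial cells, and so were Fos and Jund, with 0.25, 0.21 and 0.25. Most pairs in myoepithelial cells were as loose, such as Fosb and Ier2 (0.06) and Ier2 and Zfp36 (0.08). After thinning, Fosb, Ier2 and Zfp36 had a UMI in 29.2%, 48.6% and 32.2% of myoepithelial cells, and in 57.8%, 69.3% and 60.6% of AV cells. Low counts limit how high r can be, and their part in the differences between pairs and types was not tested. These cells share a library, and the correlations are a description.

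Across 58 sums of a mouse and a type with at least 10 cells, Jun followed the mean of the other 9 members most closely (r = 0.88), and Fosb (0.60) and Ier3 (0.56) least. Among 2310 genes with a mean of at least 50 CPM that are no members, Hes1, a target of Notch that represses transcription, had the pattern most like the mean of the 10 (r = 0.88). It was followed by Rhob (0.82), Txnip (0.80), Slc9a3r2 (0.79), Klf9 (0.78), Dnajb1 (0.77), Btg2 (0.74), Mafk (0.73), Cyr61 (0.73) and Lzts2 (0.72). Sums of 1 mouse share its dissociation and library.

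The study compared young and aged glands, and the same comparison was made for the members within 8 cell types. Counts were summed per mouse and type and tested with the edgeR quasi-likelihood test on all genes of the type, scaled by TMM, which sets the bulk of genes to no change. Members that changed by 1.5-fold or more and had an adjusted p (Benjamini-Hochberg) below 0.05 were called. Age and the handling of the libraries cannot be told apart: barcodes of all 6372 young cells are listed in 2 parts and those of the 7312 aged cells are not, median mitochondrial shares were 3.18% to 3.68% in young and 2.48% to 2.82% in aged mice, and median depth 4758.5 to 5253 and 5582 to 7109.5 UMIs. Of the cell barcodes, 44 occurred in more than 1 library, all within an age group and 0 between young and aged mice. The part of these differences in the results was not tested. The libraries held 6652599 to 16999625 UMIs each. The markers of the cell types were highest in their own type, with these exceptions. Prlr, Pgr and Esr1 were higher in HS-AV than in HS cells and Cd3g in NK than in T and B cells.

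Of 78 pairs of a member and a type tested, 11 (14.1%) were higher and 5 (6.41%) lower in aged mice, against 6.85% and 6.17% of all 43503 pairs of a gene and a type. Lower calls of members were thus as frequent as those of all genes. The calls fell on 7 genes and went 1 way for each: Ier3 was higher in 5 types, Atf3 and Ier2 in 2, and Jun and Zfp36 in 1, while Fosb was lower in 4 types and Egr1 in 1. Fos, Junb and Jund were called in none of the 8 types. An unadjusted p under 0.05 was found for 28 of the 78 pairs, counted over all members. Such a share was not taken over all genes, so the count does not show whether the members stand out. Without Young B the number of higher calls was 5, and without Young A or Young C it was 7.

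CPM and the fitted changes are on different scales. With library totals in place of TMM, the median gene moved by 0.05 to 0.36 lower on the log2 scale, with its median change at -0.41 in vascular endothelial and -0.25 in AV cells. On that scale 7 pairs of members were higher and 9 lower, and of all pairs 4.42% were higher and 11.4% lower. Higher calls made up 27.9% of all calls there and 52.6% with TMM. All Ier3, Fosb and Egr1 calls made with TMM were also made with library totals, and the calls made on 1 scale only are named with their genes below.

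**Figure D4:**
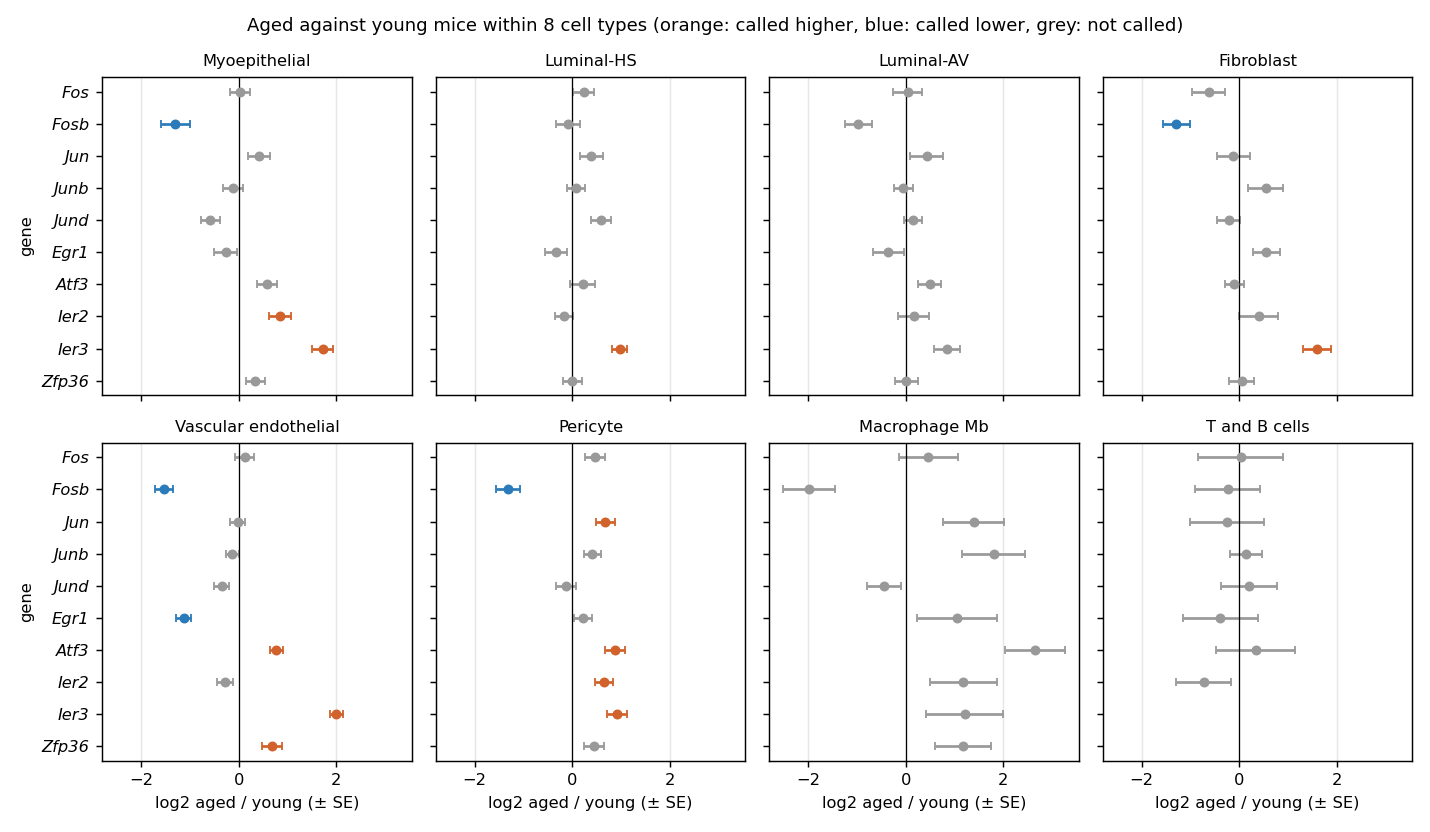
Change of each gene (rows) between aged and young mice as log2 fold change ± SE (x axis) in 8 cell types, with orange for called higher, blue for called lower and grey for not called. Ier3 lies right of 0 in all 7 types where it was tested and Fosb left of 0 in all 8, and Mb macrophages and T and B cells have the widest errors.

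Ier3 was higher in aged mice in more types than any other member. In vascular endothelial cells it was at 972, 1078 and 933 CPM in Young A, B and C and at 3346, 3099.6, 2726 and 3245 CPM in Aged A to D, so that every aged mouse was well above every young one. The difference was 2.00 ± 0.14 on the log2 scale (SE), or 3.99-fold (edgeR, adjusted p = 1.18e-06). In myoepithelial cells the young mice had 415, 575 and 672 CPM and the aged mice 1690.4, 1536, 1631 and 1811 CPM. The groups were again apart, by 1.72 ± 0.21 (3.28-fold, adjusted p = 4.73e-05).

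Fibroblasts had 293, 203 and 254 CPM of Ier3 in young and 589.6, 1179, 557 and 485 CPM in aged mice, a change of 1.59 ± 0.29 (adjusted p = 0.00914). Aged B, with 41 fibroblasts, stood above the other aged mice, and Aged C and Aged D had only 15 and 17. AV markers summed to 224 to 608 CPM in young and 355 to 2011 CPM in aged fibroblasts, with 489 CPM in Aged B, and their part in the result was not tested. Without Young B the call was lost (adjusted p = 0.0536). In HS cells the young values of 351, 341 and 354 CPM were nearly equal and all below the aged values of 781, 525, 651 and 593 (0.97 ± 0.15, adjusted p = 0.00624). Pericytes had 951, 999.7 and 1550.3 CPM in young and 2156, 1690.0, 1973 and 2033 CPM in aged mice (0.92 ± 0.20, adjusted p = 0.0106), and this call was lost without Young A (adjusted p = 0.0742) or Young B (0.0708). AV cells had overlapping groups, 981 ± 366 (n = 3) and 1467 ± 307 CPM (n = 4), and no call (0.84 ± 0.27, adjusted p = 0.0954). At equal depth 67.7% of vascular endothelial cells of young mice (64.1% to 73.3%) and 93.9% of those of aged mice (90.5% to 96.5%) held an Ier3 UMI, and 52.3% and 85.2% of myoepithelial cells.

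Fosb moved the other way. In vascular endothelial cells it was at 687, 679 and 941 CPM in the young and at 246, 164, 245 and 183 CPM in the aged mice, with no overlap, and fell by 1.53 ± 0.19 on the log2 scale (adjusted p = 6.08e-05). Pericytes had 1369, 1045 and 1715 CPM in young and 724, 471, 407 and 369 CPM in aged mice (-1.32 ± 0.24, adjusted p = 0.00434). In myoepithelial cells Young A (316 CPM) lay below Aged C (332 CPM), while Young B and C had 836 and 633 CPM and the other aged mice 128 to 237 (-1.30 ± 0.29, adjusted p = 0.00377). The myoepithelial groups therefore overlapped by that 1 pair of mice. Fibroblast markers, 4 genes of a type with much Fosb, were lower in the aged sums of these types as well, at 42.5 to 148 CPM in young and 11.7 to 33.9 in aged vascular endothelial cells, 334 to 457 and 45.2 to 185 in pericytes, and 29.5 to 208 and 3.08 to 25.7 in myoepithelial cells. Their part in the Fosb results was not tested.

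Fibroblasts had 1116, 1745 and 1698 CPM of Fosb in young and 712, 754, 418 and 402 CPM in aged mice (-1.29 ± 0.27, adjusted p = 0.0216). This call was lost without Young B (adjusted p = 0.0882) or Young C (0.0716), and without Aged C (0.0561) or Aged D (0.0534). In AV cells the groups did not overlap, 724, 1754 and 1420.3 against 571, 580.1, 594 and 477 CPM, yet the test gave -0.97 ± 0.27 with an adjusted p of 0.0615, and a call with library totals only (-1.23, adjusted p = 0.0189). Fibroblast markers were at 30.6 to 178 CPM in young and 1.23 to 5.59 CPM in aged AV cells. HS cells showed no such gap, with 513 ± 110.2 and 453 ± 135 CPM (-0.09 ± 0.24, adjusted p = 0.863). The share of cells with a Fosb UMI at equal depth was 64.9% in young and 26.1% in aged vascular endothelial cells, and 48.1% and 49.8% in HS cells.

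The Fosb difference varied between the 8 types by an F test of all type-by-age terms with the mouse as a block (adjusted p = 0.00233), and so did that of Atf3 (0.00918). These were 2 of the 10 members, and 24.7% of 10352 genes passed the same test. The Atf3 result was lost without Young A, without Young B and without Young C, each of which left 1 member, Fosb. Ier3 did not pass (adjusted p = 0.149), nor did Jund (0.0802), Ier2 (0.150) or Egr1 (0.206), so a difference between types in their change was not shown.

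**Figure D5:**
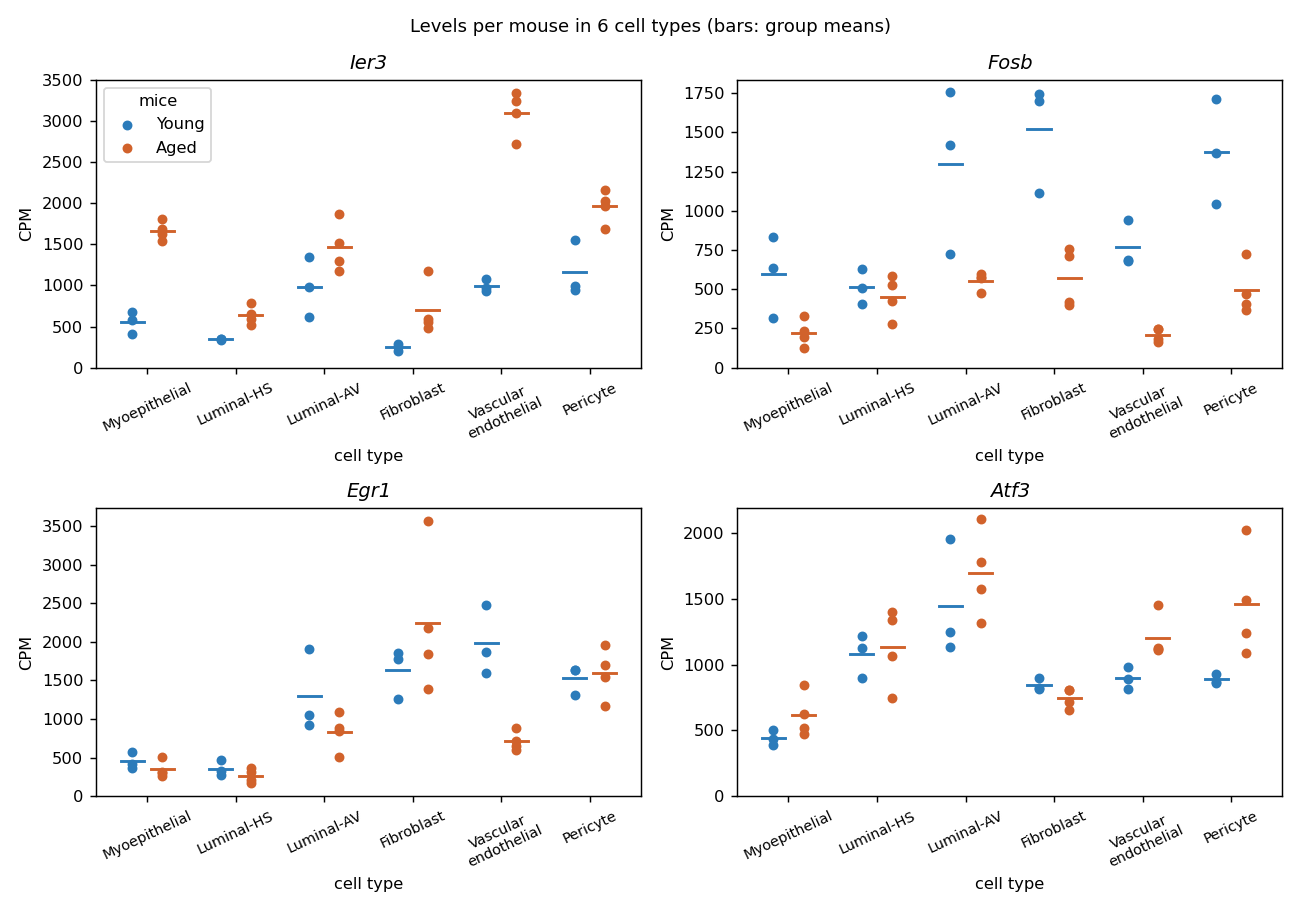
Levels per mouse (y axis, CPM, from 0) of Ier3, Fosb, Egr1 and Atf3 in 6 cell types (x axis), with 1 point per mouse, blue for young and orange for aged, and bars at the group means. In vascular endothelial cells the young and aged points are apart for all 4 genes, higher in aged mice for Ier3 and Atf3 and lower for Fosb and Egr1.

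Vascular endothelial cells held 5 of the calls. Here 3 of 10 members were higher and 2 lower, in a type where 14.7% of 7864 genes were higher and 12.0% lower. Egr1 was at 2477, 1869 and 1593 CPM in young and at 599.7, 709, 879.7 and 647 CPM in aged mice. No aged mouse reached the lowest young one, and Egr1 fell by 1.13 ± 0.16 (adjusted p = 0.000215). Atf3 had 981, 817 and 891 CPM in young and 1110.3, 1456, 1126 and 1122 CPM in aged mice, a narrow gap (0.77 ± 0.13, adjusted p = 0.000806) that was below 1.5-fold with library totals (0.42, adjusted p = 0.0281).

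Zfp36 in these cells had overlapping values, 1462, 1079.5 and 875 CPM in young and 1638, 1823, 1076 and 1196 CPM in aged mice. Its change of 0.68 ± 0.20 (adjusted p = 0.0185) became 0.32 (0.211) with library totals, and the call was lost without Young B or Young C. Fos, from 2569 to 3638 CPM in young and from 1909 to 3708 CPM in aged mice, had 0.12 ± 0.19 with TMM and -0.23 with library totals, so its direction depended on the scaling. Jund (-0.35 ± 0.15) and Ier2 (-0.28 ± 0.16) were called lower with library totals only (-0.71, adjusted p = 0.00241, and -0.64, adjusted p = 0.00690). Junb had 3894 ± 716 CPM in young and 2772 ± 129.9 CPM in aged mice, apart in CPM, with a change of -0.13 ± 0.13 with TMM and -0.50 (adjusted p = 0.00817) with library totals, called on neither scale. The share of these cells with 7 or more of the 10 genes at equal depth was 84.7% in young (81.4% to 88.3%) and 66.9% in aged mice (62.9% to 74.9%). Equal depth sets cell totals equal, as library totals do, and on that scale the median gene of these cells was at -0.41. No such share was taken for other genes.

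Pericytes, the contractile cells around small vessels, had 4 members higher and 1 lower, and 7.19% of 2601 genes higher and 4.61% lower. Atf3 was at 863, 869 and 928 CPM in young and at 2021, 1494, 1244 and 1089 CPM in aged mice (0.88 ± 0.21, adjusted p = 0.0150). Jun was at 1725, 1583 and 1884 against 2333, 3348, 2002 and 2196 CPM (0.68 ± 0.19, adjusted p = 0.0376), and Ier2 at 851, 782 and 910.0 against 1213, 1452, 989 and 1098 CPM (0.65 ± 0.18, adjusted p = 0.0330). The groups of all 3 genes were apart. With library totals Atf3 was still called (0.70, adjusted p = 0.0408), whereas Jun (0.50, 0.105) and Ier2 (0.47, 0.104) were not, and without Aged B Jun had an adjusted p of 0.107 and Ier2 one of 0.0985. Without Young A, B or C the adjusted p of all 3 lay between 0.0545 and 0.150, above the threshold.

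The pericyte sums of young and aged mice were also apart in markers of other types. Myoepithelial markers, which include the smooth muscle actin gene Acta2, summed to 1116 to 1184 CPM in young and 3078 to 6856 CPM in aged pericytes. Vascular endothelial markers summed to 1628 to 1759 and 733 to 1244 CPM there, next to 1836 to 2301 CPM in vascular endothelial cells themselves, and fibroblast markers to 334 to 457 and 45.2 to 185 CPM. HS markers, of which 2 of 5 were at 0, summed to 34.7 to 73.2 and 15.9 to 25.7 CPM. AV markers, at 361 to 679.7 and 577 to 2495 CPM, overlapped. No other gene of these lists was at 0 throughout, and their part in the pericyte results was not tested.

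In myoepithelial cells 2 members were higher and 1 lower, beside 12.8% of 6740 genes higher and 14.8% lower. Ier2 was at 347, 374 and 237 CPM in young and 594, 363, 686 and 491 CPM in aged mice, which overlap through Aged B (0.84 ± 0.23, adjusted p = 0.0127, and 0.0575 without Young C). Jund had 2655, 2222 and 1824 CPM in young and 1563, 1230.0, 1689 and 1119 CPM in aged mice, apart in all 7 mice. Its change of -0.58 ± 0.20 (adjusted p = 0.0404) was just under 1.5-fold, and with library totals it was called (-0.69, adjusted p = 0.0164). Fos, with 2255 ± 561 and 2109.6 ± 410.0 CPM, had 0.02 ± 0.21.

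The luminal types had few calls. In HS cells Ier3 was the only member called, with 3.93% of 8457 genes higher and 2.33% lower, and Jund had 5679.8 ± 935 CPM in young and 7824 ± 824 in aged mice (0.59 ± 0.20, adjusted p = 0.100), opposite in sign to its value in myoepithelial cells. In AV cells no member was called by edgeR, 2 had an unadjusted p under 0.05, and of 11012 genes 2.90% were higher and 3.26% lower. Fos in AV cells spread more within an age than between ages, with 7270.3, 9921 and 5255 CPM in young and 3369, 8037, 6691 and 7425 CPM in aged mice (0.04 ± 0.30). In fibroblasts 1 member was higher and 1 lower, with 2.07% of 5513 genes higher and 1.11% lower.

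Mb macrophages and T and B cells had too few cells for firm statements. In Mb macrophages, where 0.931% of 859 genes were higher and 0.233% lower, no member was called by edgeR, although 3 had an unadjusted p under 0.05 and the median change of the members was 1.18, beside -0.02 for all genes. Atf3 was at 137, 534 and 313 CPM in young and at 878, 2104, 929 and 2542 CPM in aged Mb cells, with no overlap (2.65 ± 0.61, adjusted p = 0.0893). Fosb was also apart, at 150.2 to 302 CPM in young and 33.4 to 82.0 CPM in aged Mb cells (-1.98 ± 0.53, adjusted p = 0.117). In T and B cells, 4 to 19 per mouse, none of 8 tested members was called or had an unadjusted p under 0.05, with 0.219% of 457 genes higher and 0.438% lower. AV markers in these cells reached 10928 CPM in Aged D, which was also highest in Ier3 (1264 CPM), and no more than 3811 CPM in the other mice.

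The members' own partners and regulators were read from 7 further lists over the same 8 types, where 6.85% of all pairs were higher and 6.17% lower with TMM, and 4.42% and 11.4% with library totals. Of the other AP-1 family genes, 10 of 54 tested pairs were higher and 1 lower, and 7 and 4 with library totals. Maff, a small Maf protein that pairs with other leucine zipper factors, was higher in 4 types, with 1.45 ± 0.27 in fibroblasts (adjusted p = 0.00996) and 1.29 ± 0.21 in vascular endothelial cells (0.000511), and Fosl1, a Fos family gene of slower onset, in myoepithelial (1.72 ± 0.21, adjusted p = 4.40e-05) and vascular endothelial cells (1.62 ± 0.44, 0.0133). Without Young A or Young B the list had 5 higher calls, and without Young C it had 6. Of other immediate early genes 20 of 134 pairs were higher and 8 lower, and 15 and 14 with library totals. Gem, a small GTPase, was higher in 5 types and most in vascular endothelial cells (2.77 ± 0.23, adjusted p = 3.14e-06), and Ier5 and Myc were higher in 3 each. The 20 higher calls became 7 without Young A, 13 without Young B and 9 without Young C.

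Genes that damp MAP kinase signalling had 12 of 78 pairs higher and 3 lower. Spry2, which restrains growth factor receptors, was higher in myoepithelial cells (1.66 ± 0.35, adjusted p = 0.00236), fibroblasts and vascular endothelial cells, and Dusp5, a nuclear ERK phosphatase, was lower in myoepithelial (-1.31 ± 0.26, 0.00174) and higher in vascular endothelial cells (0.86 ± 0.20, 0.00595). Without Young A only 3 pairs of this list were higher, and with library totals 5 were higher and 7 lower. The kinases and factors upstream of the members had 5 of 87 pairs higher and 2 lower, with a median of 0.04, and with library totals 1 higher and 6 lower, so the balance turned with the scaling. Map2k1, which activates ERK, was higher in myoepithelial cells (1.80 ± 0.25, adjusted p = 0.000105) and was called in no other type tested. Mapk3 was lower in the same cells (-1.16 ± 0.25, 0.00254), and Elk3 was higher in vascular endothelial cells (0.70 ± 0.15, 0.00376). The higher calls numbered 3 without Young A or Aged A, 2 without Aged C and 9 without Aged B. Of the proteins that bind AU-rich mRNA like Zfp36, 2 of 39 pairs were higher and 5 lower (1 and 5 with library totals), among them Hnrnpd in HS (-0.66 ± 0.18, 0.0495) and AV cells (-0.79 ± 0.18, 0.0322). None of the 5 lower calls was made without Young A, Young C, Aged B or Aged C, 1 without Aged A or Aged D, and 3 without Young B.

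Known AP-1 targets had 16 of 53 pairs higher and 2 lower (14 and 3 with library totals), with a median of 0.78, beside 0.16 for the members. Hmox1, the heme-degrading enzyme of the oxidative stress response, was higher in 6 types, with 76.3 to 293 CPM in young and 1321 to 3580.3 CPM in aged vascular endothelial cells (adjusted p = 2.32e-05). Spp1, osteopontin, was higher in AV, myoepithelial, HS and vascular endothelial cells and in fibroblasts. Hmox1 and Spp1 held most of the higher calls of this list. Spp1 had 6 UMIs over all young and 46102 over all aged AV cells. It reached 3327 CPM in aged AV cells and no more than 104 CPM in the aged mice of those other types. Whether the latter was carried over from AV cells was not tested. Without Aged D the list had 10 higher calls. Heat shock genes, which dissociation is known to induce alongside the members, had 10 of 77 pairs higher and 2 lower, and 7 and 4 with library totals. Hspa1a, whose reads can be confused with those of its near copy Hspa1b, was higher in fibroblasts (3.40 ± 0.62, adjusted p = 0.00896) and pericytes (1.65 ± 0.35, 0.00848), and Hspb1 in vascular endothelial cells (1.73 ± 0.18, 1.76e-05), pericytes and myoepithelial cells. The 10 higher calls became 5 without Young A and 6 without Young C. Vascular endothelial cells had 2 of 11 heat shock genes higher and pericytes 4 of 10, and their part in the results for the members was not tested. How much of any level or difference arose during the digestion was not tested.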

How the data were processed

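The authors mapped reads of 10x 3′ v2 libraries to mm10 with Cell Ranger 2.0 and deposited raw UMI counts for 13684 cells, filtered by them on UMIs, genes and mitochondrial content. They also deposited the mitochondrial fraction, cell-cycle scores and phase of each cell, and cell types from Seurat clusters, which were used as given. Median depth per mouse was 4758.5 to 7109.5 UMIs per cell. Here counts were summed per mouse and type (at least 3 cells), filtered with filterByExpr, scaled by TMM and tested with edgeR 4.0.16 (R 4.3.3), without covariates. Fits were tested on simulated data. Doublets were scored with Scrublet (scanpy 1.11.5, rate 0.06), and the 73 cells it marked stayed in. Alternatives were RLE factors, DESeq2 1.42.0, no filter, at least 10 cells, no fold minimum, thinned sums, no ribosomal protein and mitochondrial genes, no doublets, a block of label letters and each mouse left out. Scaling by library totals was added after seeing the data. Replicates are separate mice, and p-values set the difference between the age groups against the spread between mice. The members and lists were chosen with earlier results of these data known. All 10 members are named. Of every other list at most 3 genes are named, those called in most types, ties by mean absolute change. Genes like the members were ranked by Pearson r of log2(CPM + 1). Promoters came from RefSeq (GRCm38.p6) and positions from GENCODE vM21. Amino acid sequences were not used here.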

Additional observations from a re-analysis of the deposited data

Results flagged for a closer look

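In 5 of 80 groups of 4 aged mice 1 mouse stood apart from the others by more than Dixon's 95% limit, which chance exceeds in about 1 of 20 groups. Jun in HS cells was 3763 CPM in Aged C and 2089 CPM in the next mouse. Atf3 in vascular endothelial cells was 1456 CPM in Aged B, with 1110.3 to 1126 CPM in the others, and Ier2 in the same cells was 581 CPM in Aged A, with 757 to 792 CPM in the others. Ier3 was 1179 CPM in the fibroblasts of Aged B, next to 485 to 589.6 CPM, and 1264 CPM in the T and B cells of Aged D, next to 60.9 to 242 CPM. The last value rests on 6 cells.

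The change with age differed between the 8 cell types for Fosb (adjusted p = 0.00233, edgeR F test) and Atf3 (adjusted p = 0.00918). Fosb fell in 4 types and had -0.09 ± 0.24 in HS cells, and Atf3 was higher in vascular endothelial cells and pericytes and had -0.10 ± 0.19 in fibroblasts.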

How the results depend on the processing

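Over 16 called pairs of a member and a type and 16 alternatives each (256 values), 223 stayed called, 33 were no longer called and 0 changed sign. Ier3 in vascular endothelial, myoepithelial and HS cells, Fosb in vascular endothelial cells, myoepithelial cells and pericytes, and Egr1 in vascular endothelial cells were called under all 16. Jun in pericytes was lost under 9 (adjusted p up to 0.173) and Ier2 in pericytes under 7 (up to 0.264), and the cause was not tested. The 11 higher calls ranged from 5 to 12 and the 5 lower calls from 4 to 6 when each mouse was left out, with 7, 5 and 7 higher calls without Young A, B and C. DESeq2 gave 12 and 7. Library totals, chosen after seeing the data, gave 7 and 9.

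The 2 members whose change differed between types became 4 with library totals, 7 without a filter on low counts (a fit that moved the median of all genes by up to 1.07), 5 with at least 10 cells, 1 without ribosomal protein and mitochondrial genes, and 1 to 3 when each mouse was left out. Fosb passed in each. At least 10 cells could not be had for Mb macrophages and T and B cells.

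Label letters name different animals. Deviations of same-lettered mice had correlations of -0.19, -0.07 and 0.07 in AV and -0.07, -0.08 and 0.00 in vascular endothelial cells, and not every mouse went best with its own letter. With the letter as a block there were 9 higher and 4 lower calls. Of the 16 called pairs 4 were not called with it, namely Fosb and Ier3 in fibroblasts (adjusted p = 0.165 and 0.0765) and Jun and Ier2 in pericytes (0.118 and 0.119).

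Calls of the other lists, all alternatives together, ranged for higher and lower from 5 to 13 and 0 to 4 (other AP-1 family), 7 to 23 and 5 to 14 (other immediate early genes), 3 to 17 and 1 to 7 (MAP kinase feedback), 1 to 9 and 1 to 6 (upstream), 1 to 3 and 0 to 5 (AU-rich mRNA binding), 10 to 21 and 0 to 7 (targets), and 5 to 14 and 1 to 4 (heat shock). Thinning moved 66 of 80 shares of cells, so only thinned shares were compared. Types with under 10 cells per mouse limit what could be seen.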
